A study of Mus musculus with 4 samples.

Results

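The 10 genes examined here encode the subunits of PRC1.6, a noncanonical form of Polycomb repressive complex 1: Mga, Max, E2f6, Tfdp1, Pcgf6, L3mbtl2, Rnf2, Rybp, Yaf2 and Cbx3. They were found in the count table by gene symbol and make up 10 of the 49997 genes in the count table. At an adjusted p under 0.05 in edgeR, 0 of the 10 were called when Ythdf2 was knocked down, where 3.91% of all genes tested were, so a count of 0 in 10 is near that share. Mean levels in the knockdown lay between 66.3% of control, for Yaf2, and 122% of control, for Tfdp1. The libraries come from E14 cells, a mouse embryonic stem cell (ESC) line grown on gelatin with serum replacement and leukaemia inhibitory factor. Both groups were stable lines with a lentiviral short hairpin RNA under puromycin selection, a scrambled sequence (shScramble, 2 libraries) or one against Ythdf2, a reader of N6-methyladenosine (m6A) on mRNA (shYthdf2, 2 libraries), and the labels do not say which of the hairpins against Ythdf2 was used. The study describes its Ythdf knockdown ESCs as holding a tdTomato transgene under the MERVL promoter, a marker of 2-cell-like cells, which the labels of these libraries do not mention.

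PRC1.6 is brought to DNA by paired transcription factors. MGA, the scaffold of the complex, binds the E-box CACGTG together with MAX, and E2F6 binds E2F sites together with DP1, the product of Tfdp1. PCGF6 and the RING-finger enzyme RNF2 form the core that attaches ubiquitin to histone H2A. RYBP or YAF2, which are alternatives to each other, complete that core. L3MBTL2 carries MBT domains and binds chromatin, and CBX3, known as HP1 gamma, binds methylated histone H3. In ESCs the complex is known for keeping genes of meiosis and of the germline silent, and its loss turns these genes on.

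The libraries held between 31113006 and 36422510 counted reads. The targeted gene was at 93.4 and 87.6 CPM (read counts scaled to a common library total by TMM) in shScramble and at 31.8 and 30.2 CPM in shYthdf2, which is -1.55 ± 0.11 (SE) on the log2 scale (edgeR, adjusted p = 0.00069). The 9 ESC markers summed to 6592 and 6362 CPM in shScramble and to 6229 and 5668 CPM in shYthdf2. For 4 of the 9 the groups did not overlap, with shYthdf2 below, against 25.5% of all genes tested. Tdgf1 was called lower (edgeR, adjusted p = 0.0411), where 1.49% of all genes were. The log2 fold change was below 0 for 6 of the 9 ESC markers. It was above 0 for 3, Pou5f1 (0.13), Utf1 (0.15) and Esrrb (0.04), none of them called. Fibroblast or feeder markers summed to 17.3 and 18.0 CPM in shScramble and 9.54 and 15.8 CPM in shYthdf2, with Dcn at 0. Thy1 made up most of that sum, and its groups overlapped (13.2 and 15.2 CPM in shScramble, 7.78 and 13.6 CPM in shYthdf2). Trophoblast markers summed to 5.03 and 4.70 CPM in shScramble and to 3.19 and 2.82 CPM in shYthdf2, so these sums too were lower in both shYthdf2 libraries. Gata3 made up most of the trophoblast sum, at 3.92 and 3.52 CPM against 1.87 and 1.93 CPM. Cdx2 went the other way, at 0.22 and 0.19 CPM against 0.41 and 0.34 CPM. Primitive endoderm markers summed to 4.64 to 7.43 CPM, and their groups overlapped. The 8 markers of 2-cell-like cells summed to 27.4 and 39.8 CPM in shScramble and to 54.5 and 153 CPM in shYthdf2, so that shYthdf2 replicate 2 stood apart from the other 3 libraries. For 7 of these 8 markers the groups did not overlap, with shYthdf2 above, as for 4806 of all 18341 genes tested. None of the 8 was at 0 in all 4 libraries. The part of any of these cells in the values given here, those of the germline genes included, was not tested. In bulk RNA, fewer cells of a type and less RNA per cell cannot be told apart.

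Over the complex, 0 of the 10 genes had an adjusted p under 0.05 in edgeR's quasi-likelihood test, where 3.91% of the 18341 genes tested did. The count was also 0 in limma-voom, and DESeq2 called 1 of the 10, E2f6, against 9.77% of all genes with an adjusted p. With replicate number as a block, edgeR called 4 of the 10, against 19.2% of all genes. Without shYthdf2 replicate 2, the library with the most 2-cell-like marker reads, edgeR called 1 of the 10, Mga, as lower, and 5.73% of all genes as lower. The study's criteria ask for an unadjusted DESeq2 p no higher than 0.05 and a log2 fold change of 1 or more in either direction, and by them 0 of the 10 passed, against 2.88% of all genes with a read. At an unadjusted edgeR p under 0.05 the count was 4 of 10, against 20.8% of all genes: Tfdp1 was higher, and E2f6, Yaf2 and Rnf2 were lower. The libraries of the groups did not overlap for 9 of the 10 genes, against 51.8% of all genes, with Tfdp1, Max, L3mbtl2 and Cbx3 on the higher side and Rnf2, Rybp, Pcgf6, E2f6 and Yaf2 on the lower. The median log2 fold change of the 10 was -0.09, beside 0.00 over all genes tested, and it rested on single libraries: it was 0.0031 without shYthdf2 replicate 1, -0.21 without shYthdf2 replicate 2 and -0.04 without shScramble replicate 1. By replicate number the median log2 ratio of the 10 was -0.28 and 0.0077. With 2 libraries on each side, the smallest two-sided p that an exact permutation test allows is 0.33, and every p given for a gene is therefore that of the model.

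**Figure D1:**
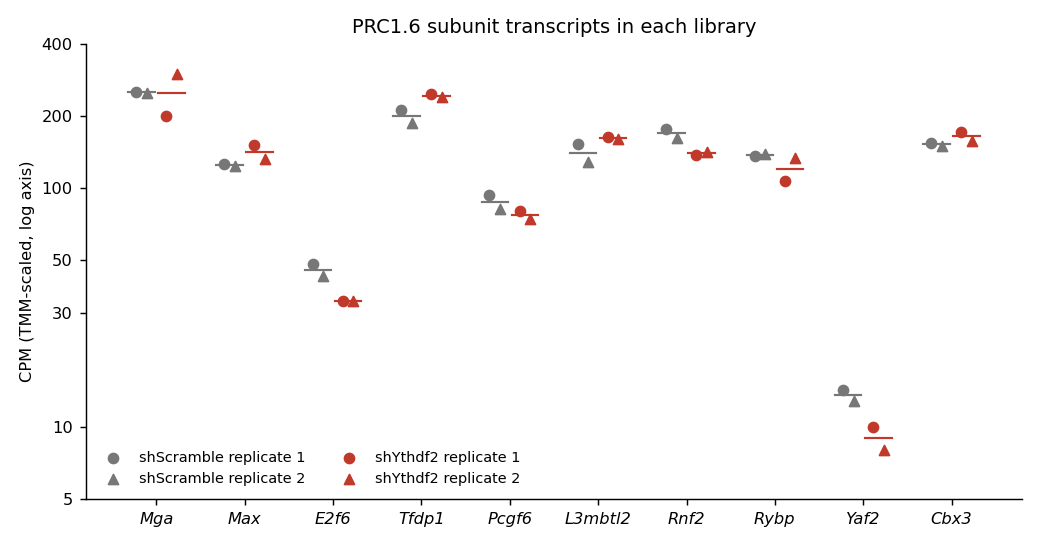
TMM-scaled CPM (log axis) of the 10 PRC1.6 subunit genes in each of the 4 libraries, with circles for replicate 1, triangles for replicate 2 and bars at the group means. Mga is the gene whose groups overlap, with 199 and 299 CPM in shYthdf2 on either side of about 250 CPM in shScramble.

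Neither gene of the first DNA-binding pair, Mga and Max, passed the test. Mga (chr2:119872503-119970129, plus strand, mm10) measured 251 and 250 CPM in shScramble and 199 and 299 CPM in shYthdf2. The shScramble libraries differed by about 1 CPM, whereas the shYthdf2 libraries lay on opposite sides of them. The group means were 251 ± 0.76 and 249 ± 70.7 CPM (SD, n = 2), and the fitted log2 fold change was -0.01 with a 95% interval of -0.38 to 0.36. Mga was thus decided by the choice of library: without shYthdf2 replicate 2 it was -0.33 with an adjusted p of 0.0470, and without shYthdf2 replicate 1 it was 0.25 with an adjusted p of 0.222. Its partner Max (chr12:76937269-76962323, minus strand) measured 126 and 123 CPM in shScramble and 151 and 132 CPM in shYthdf2. Both knockdown libraries were higher, and their spread of 13.2 CPM (SD) was close to the difference of the means, 125 and 141 CPM. The log2 fold change was 0.18 ± 0.11 (SE; edgeR, adjusted p = 0.385), with an interval of -0.06 to 0.43.

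In the second pair, E2f6 lay on the lower side and Tfdp1 on the higher, neither past the threshold in edgeR. E2f6 (chr12:16810909-16826752, plus strand), an E2F that lacks the activating domain of some of its relatives, was at 48.0 and 42.8 CPM in shScramble and at 33.6 and 33.6 CPM in shYthdf2. Both knockdown libraries sat below both control libraries, at 74.0% of the control mean. The log2 fold change was -0.43 ± 0.13 (SE), with a 95% interval of -0.72 to -0.15. Its adjusted p was 0.0873 in edgeR, the lowest of the complex, and 0.0438 in DESeq2. Leaving out 1 library at a time kept it between -0.51 and -0.35. Tfdp1 (chr8:13338725-13378448, plus strand), which encodes the partner that E2F proteins need to bind DNA, went the other way. It measured 213 and 186 CPM in shScramble and 247 and 239 CPM in shYthdf2. The knockdown libraries were the higher ones, and they differed less from each other (SD 5.64 CPM) than the control libraries did (SD 18.6 CPM). The log2 fold change was 0.28 ± 0.11 (SE), with an interval of 0.04 to 0.53 and an adjusted p of 0.173 in edgeR.

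Because these 4 proteins read short DNA motifs, the promoters were searched for the E-box CACGTG, which is its own reverse complement, and for an E2F-type core, TCCCGC on either strand (GCGGGA on the other). The windows run from 250 bases before to 50 bases after each start, in RefSeq promoters on GRCm38.p6, the assembly behind mm10, and 10 windows of 8 of the 10 genes matched. Rybp and Yaf2 had no entry. Of all 32851 windows of this length, 7.15% hold the E-box and 19.98% the E2F core. Among the subunit genes the E-box was found in 2 of the 10 windows, 1 of Max and 1 of Tfdp1, and the E2F core in 4, those of E2f6 and Rnf2 and both of Tfdp1. The promoters of Max and E2f6 are shown as examples that hold the motif read by their own protein. Tfdp1 holds the E2F core too, and Mga holds no E-box. The sequences run 5′ to 3′ on the gene's strand with the matches in capitals. A match is a description of the letters, not a bound site.
Max (chr12:76962199-76962498, minus strand): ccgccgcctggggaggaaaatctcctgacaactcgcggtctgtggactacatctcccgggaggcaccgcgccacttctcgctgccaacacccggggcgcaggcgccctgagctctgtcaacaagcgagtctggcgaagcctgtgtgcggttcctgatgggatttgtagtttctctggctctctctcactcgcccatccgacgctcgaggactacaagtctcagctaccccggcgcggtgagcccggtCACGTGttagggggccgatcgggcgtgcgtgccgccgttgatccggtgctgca
E2f6 (chr12:16810715-16811014, plus strand): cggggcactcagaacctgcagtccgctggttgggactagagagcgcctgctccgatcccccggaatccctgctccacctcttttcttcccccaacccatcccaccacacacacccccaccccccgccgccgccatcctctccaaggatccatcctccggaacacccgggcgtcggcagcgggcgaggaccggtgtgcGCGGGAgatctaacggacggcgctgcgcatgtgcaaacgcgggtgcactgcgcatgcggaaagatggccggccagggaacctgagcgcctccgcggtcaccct

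Both genes of the catalytic core had lower means in shYthdf2, and neither passed the test. Rnf2 (chr1:151469398-151500991, minus strand), known as RING1B and the main H2A ubiquitin ligase of ESCs, measured 176 and 162 CPM in shScramble and 138 and 142 CPM in shYthdf2. The groups did not overlap, and the means of 169 ± 9.68 and 140 ± 2.86 CPM (SD, n = 2) lay -0.28 ± 0.10 (SE) apart on the log2 scale (edgeR, adjusted p = 0.170). Its interval of -0.51 to -0.04 left out 0. Pcgf6 (chr19:47033617-47050939, minus strand), the RING-finger partner that defines this form of PRC1, measured 93.1 and 81.4 CPM in shScramble and 79.8 and 74.4 CPM in shYthdf2. The lower control library was only slightly above the higher knockdown library. The log2 fold change was -0.18 ± 0.12 (SE; edgeR, adjusted p = 0.425), with an interval of -0.44 to 0.08.

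Of the alternatives RYBP and YAF2, the rarer transcript showed the lowest fold change of the complex. Yaf2 (chr15:93283833-93336935, minus strand) had 514 and 406 reads in shScramble and 341 and 287 reads in shYthdf2, which came to 14.3 and 12.9 CPM against 9.97 and 8.02 CPM. Both knockdown libraries were below both controls, at 66.3% of the control mean. The log2 fold change was -0.59 ± 0.20 (SE; edgeR, adjusted p = 0.128), and its interval of -1.04 to -0.15 was the widest of the 10. Rybp (chr6:100228565-100287358, minus strand) measured 135 and 139 CPM in shScramble and 107 and 133 CPM in shYthdf2. Here shYthdf2 replicate 1 was well below the controls and replicate 2 just below them, and replicate 1 was the lower of the pair for Mga too. The log2 fold change was -0.19 ± 0.12 (SE; edgeR, adjusted p = 0.418). Without shYthdf2 replicate 2 it was -0.36 (adjusted p = 0.0501), and without shYthdf2 replicate 1 it was -0.05 (adjusted p = 0.917).

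The chromatin-binding subunits lay on the higher side, and neither passed the test. L3mbtl2 (chr15:81663889-81688315, plus strand) measured 152 and 129 CPM in shScramble and 164 and 161 CPM in shYthdf2. The knockdown libraries lay close together above a wider control pair, 0.21 ± 0.11 (SE) higher on the log2 scale (edgeR, adjusted p = 0.344). Cbx3 (chr6:51470154-51483704, plus strand) measured 155 and 150 CPM in shScramble and 172 and 158 CPM in shYthdf2, higher by 0.12 ± 0.10 (SE) on the log2 scale (edgeR, adjusted p = 0.581). The interval of Cbx3, -0.12 to 0.35, and that of L3mbtl2, -0.05 to 0.46, both included 0.

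**Figure D2:**
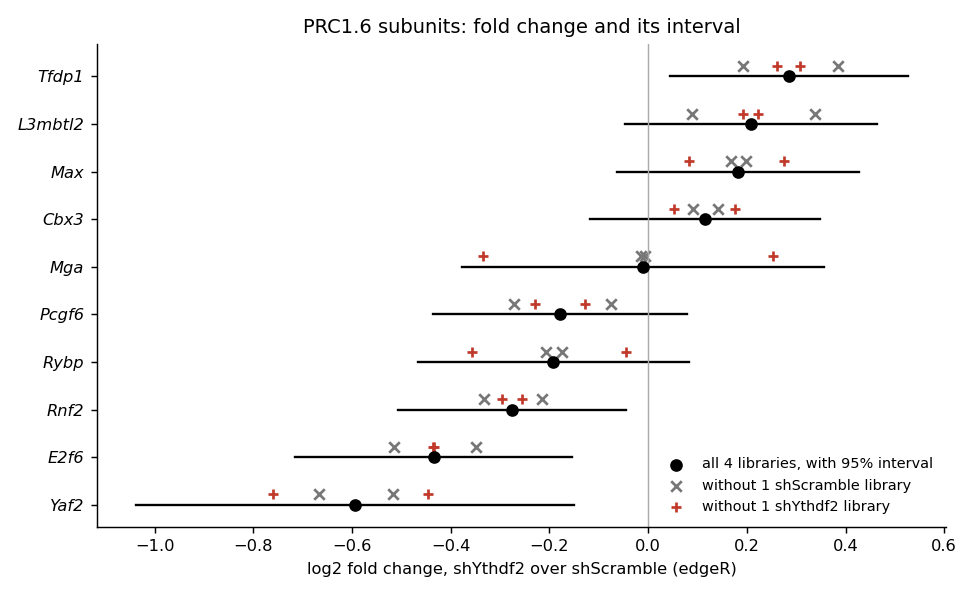
log2 fold change of each PRC1.6 subunit gene in shYthdf2 over shScramble from edgeR, as black points with 95% intervals, and the values when 1 library is left out, as crosses. The intervals of Yaf2, E2f6 and Rnf2 lie below 0 and that of Tfdp1 above it, before any adjustment for the number of genes. Mga runs from -0.33 to 0.25 with the shYthdf2 library left out.

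Transcript levels were compared between subunits as CPM per kb of exon, since longer genes collect more reads. In shScramble the order was Cbx3 (60.1 CPM per kb), Tfdp1 (59.3), Max (47.5), Rnf2 (42.8), L3mbtl2 (36.9), Rybp (31.3), Pcgf6 (18.0), Mga (13.2), E2f6 (8.83) and Yaf2 (5.81). Of neighbours in this order, only Cbx3 and Tfdp1 overlapped between their libraries. In shYthdf2 Tfdp1 (72.2 CPM per kb) stood before Cbx3 (65.2) and L3mbtl2 (42.6) before Rnf2 (35.4), and only Pcgf6 (15.9) and Mga (13.1) overlapped as neighbours. The scaffold transcript Mga and the DNA-binding E2f6 took the places just above Yaf2, the rarest, in both groups. The order depends on the length used. The deposited length is that of all exons of a gene together, 19069 bases for Mga and 5138 bases for E2f6, while their longest coding GENCODE transcripts have 13931 and 2418 bases. By that second length, chosen after seeing the data, Pcgf6 (40.4 CPM per kb) stood level with L3mbtl2 (40.3) and above Rybp (30.4) in shScramble, and E2f6 (18.8) stood level with Mga (18.0).

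**Figure D3:**
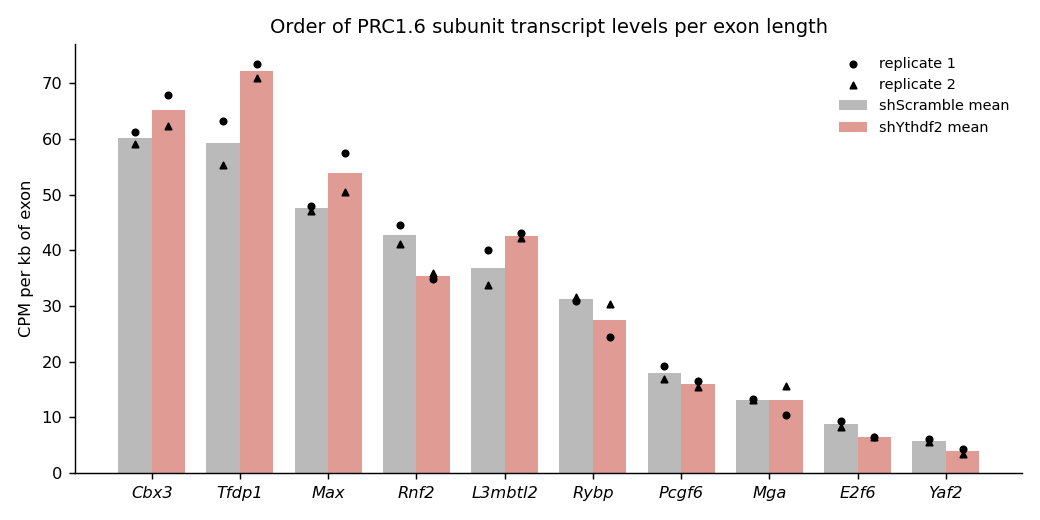
Mean CPM per kb of exon (bars, linear axis from 0) of each PRC1.6 subunit gene in shScramble and shYthdf2, ordered by the shScramble mean, with the 2 libraries of each group as points. Cbx3 and Tfdp1 lead at about 60 CPM per kb in shScramble, and Yaf2 is lowest at 5.81.

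Rnf2, Tfdp1 and Rybp each have a close relative that can take its place, and the split between relatives was given as a share per library, per kb of exon. Rnf2 made up 95.7% and 95.9% of Rnf2 and Ring1 together in shScramble and 92.2% and 93.6% in shYthdf2. The groups did not overlap, and the mean went from 95.8% ± 0.14 to 92.9% ± 1.05 (SD, n = 2). Ring1, which encodes the other H2A ubiquitin ligase of PRC1, measured 16.5 and 14.5 CPM in shScramble and 24.3 and 19.95 CPM in shYthdf2. Its log2 fold change was 0.51 ± 0.17 (SE; edgeR, adjusted p = 0.129), opposite in sign to that of Rnf2. Ring1 has a deposited length of 8180 bases against 2034 bases for its longest coding transcript, and by the latter the share of Rnf2 was 87.4% ± 0.37 in shScramble and 80.1% ± 2.54 in shYthdf2. Tfdp1 made up 83.2% and 82.0% of Tfdp1 and Tfdp2 in shScramble and 86.1% and 85.0% in shYthdf2. Tfdp2 itself measured 109 and 103 CPM in shScramble and 101 and 106 CPM in shYthdf2, and its groups overlapped. Rybp made up 83.5% and 85.2% of Rybp and Yaf2 in shScramble and 85.2% and 89.9% in shYthdf2, so the highest shScramble share and the lowest shYthdf2 share were about equal.

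Several genes near or like the subunits could share reads with them, because strand was not used in counting and reads with several placements were left out. L3mbtl2 shares 111 exon bases, 2.91% of its own, with Chadl on the opposite strand, and Chadl had 21 to 53 reads per library against at least 4051 for L3mbtl2. Cbx3 starts 106 bases from Hnrnpa2b1 on the opposite strand, with no shared exon, and Hnrnpa2b1 measured 1341 and 1398 CPM in shScramble and 1339 and 1322 CPM in shYthdf2. Of all 150-base windows in the transcripts, 5.33% recur exactly, on either strand, in another gene for Cbx3, 2.58% for Rybp, 2.00% for Tfdp1 and 0.21% for Rnf2. For L3mbtl2 the share was 7.65%, all with Chadl. Max, Mga, E2f6, Pcgf6 and Yaf2 had no such window. YTHDF2 reads m6A, whose core is often written GGAC, and the longest coding transcripts held between 1.59 (Tfdp1) and 6.31 (L3mbtl2) of these words per kb, around a median of 3.94 over 21877 genes. E2f6 held 4.55 and Yaf2 1.79 per kb. A GGAC word is no measure of methylation, which was not measured in these libraries.

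Few genes of the wider families around the complex were called, as was true of all genes tested (3.91% in either direction by edgeR). Of 6 genes of proteins that join PRC1.6, such as the deacetylases Hdac1 and Hdac2 and the methyltransferases Ehmt1 and Ehmt2, 0 were called by edgeR. The unadjusted edgeR p was under 0.05 for 2 of the 6, both higher, against 11% higher over all genes. The median log2 fold change of the 6 was 0.15. DESeq2 called 0 of the 6, against 9.77% of all genes with an adjusted p, in either direction. Ring1 had the lowest adjusted p of these. With 1 library left out it lay between 0.36 (edgeR, adjusted p = 0.457, without shYthdf2 replicate 1) and 0.65 (edgeR, adjusted p = 0.0284, without shYthdf2 replicate 2). Of 24 genes of the other PRC1 forms, 1 was called higher and 0 lower, by edgeR as by DESeq2, against 2.43% higher and 1.49% lower over all genes by edgeR. The one called was Cbx6, a chromobox subunit of canonical PRC1, at 57.1 and 59.5 CPM in shScramble and 93.5 and 82.2 CPM in shYthdf2. Its log2 fold change was 0.59 ± 0.11 (SE; edgeR, adjusted p = 0.0263). The unadjusted edgeR p was under 0.05 for 5 higher and 2 lower genes of these 24, against 11% higher and 9.8% lower over all genes. Of the 8 other partners of MAX, 0 were called by edgeR. The unadjusted edgeR p was under 0.05 for 2 of the 8, both lower, against 9.8% lower over all genes. DESeq2 called 1 of the 8, against 9.77% of all genes in either direction. The lowest adjusted p was that of Mycl, a Myc relative, at 22.2 and 25.0 CPM against 15.8 and 16.6 CPM (edgeR, adjusted p = 0.0870). Of the 8 other E2F and DP genes, 0 were called and 0 had an unadjusted p under 0.05 in edgeR, and DESeq2 called 0. The one with the lowest adjusted p was E2f5, a repressive E2F, with a log2 fold change of -0.20 (edgeR, adjusted p = 0.459).

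Of 27 germline genes, most of them known as genes that PRC1.6 holds silent, 10 fell in the knockdown. The list was composed knowing that germline genes fall in these libraries, so its counts describe them and are no independent evidence of direction. By edgeR 10 of 27 were called lower, against 1.49% of all genes, and 0 higher. DESeq2 called 11 lower and 0 higher, where it called 9.77% of all genes with an adjusted p in either direction. At an unadjusted p under 0.05, 18 of 27 were lower, against 9.8% of all genes, and 0 higher. Without shYthdf2 replicate 2 edgeR called 13 lower, where it called 5.73% of all genes lower, and without shYthdf2 replicate 1 it called 17, where it called 2.67%. The groups did not overlap for 20, all lower in shYthdf2, against 25.5% of all genes, and the median log2 fold change was -0.77. Stag3, a cohesin subunit of meiosis, was at 127 and 122 CPM in shScramble and at 62.7 and 57.4 CPM in shYthdf2 and fell by 1.05 on the log2 scale (edgeR, adjusted p = 0.0028). Both knockdown libraries were at about the same level, far below the controls. Smc1b, another meiotic cohesin subunit, fell from 72.1 and 59.5 CPM to 32.6 and 26.0 CPM (edgeR, adjusted p = 0.0052). Meioc, which sustains the meiotic programme, fell from 28.3 and 33.6 CPM to 11.6 and 12.1 CPM (edgeR, adjusted p = 0.00456). Mov10l1, a helicase of piRNA production, fell from 30.0 and 29.8 CPM to 16.6 and 16.2 CPM (edgeR, adjusted p = 0.0152). Mael, a piRNA pathway factor, fell from 48.0 and 55.0 CPM to 31.6 and 28.8 CPM (edgeR, adjusted p = 0.0161). The other genes called lower were Dmc1, Tex11, Brdt, Sycp1 and Sycp2, which act in meiosis or in spermatogenesis. By replicate number, the median log2 ratio of the list was -0.70 and -0.88.

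**Figure D4:**
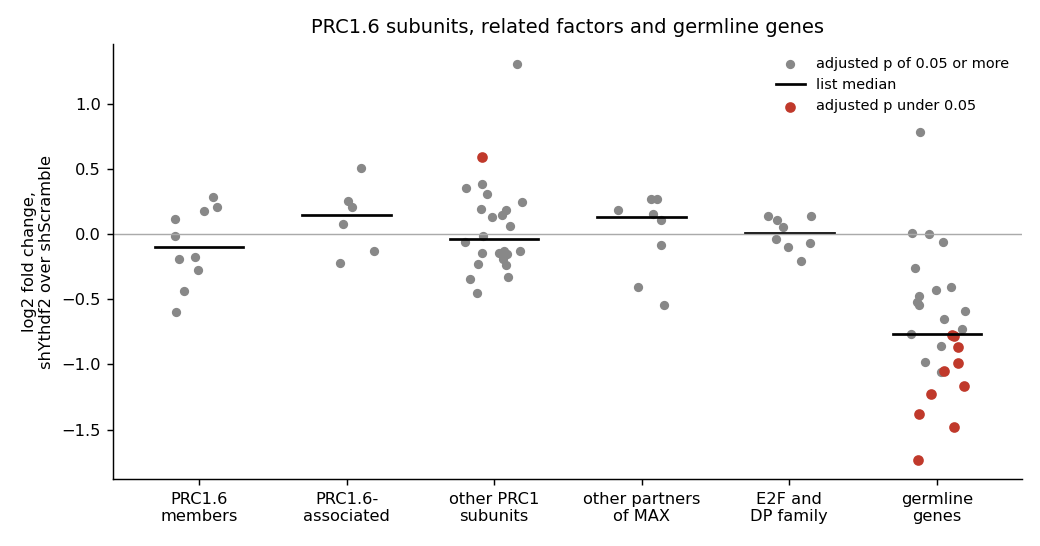
log2 fold change in shYthdf2 over shScramble of each tested gene in the PRC1.6 subunits and 5 related lists, with genes at an adjusted edgeR p under 0.05 in red and the median of each list as a black line. The subunits lie between -0.59 and 0.28 around a median of -0.09, and the germline genes reach -1.73 around a median of -0.77.

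The motifs read by PRC1.6 were more common in promoters of these germline genes than in all promoters, which describes a list composed largely of known targets. Windows matched for 24 of the 27 genes, 29 windows in all, with no entry for Tex11, Meiob and Majin. The E-box stood in 15 of the 29 (51.72%, against 7.15% of all windows), the E2F core in 13 (44.83%, against 19.98%) and both in 8 (27.59%, against 1.99%). At least 1 of the motifs stood in 20 (68.97%, against 25.13%). Counted by gene, the E-box stood in 5 of the 9 called lower and in 7 of the 15 not called. The E2F core stood in 6 of the 9 and 6 of the 15, both motifs in 3 and 4, and at least 1 in 8 and 9. A link between the motifs and the fall was not tested. The promoters of the 5 genes named with values are shown, as RefSeq sequence on GRCm38.p6 read 5′ to 3′ on the gene's strand, with both motifs in capitals. Stag3 and Mael hold the E-box and the E2F core, Smc1b and Meioc the E2F core alone and Mov10l1 the E-box alone.
Stag3 (chr5:138280259-138280558, plus strand): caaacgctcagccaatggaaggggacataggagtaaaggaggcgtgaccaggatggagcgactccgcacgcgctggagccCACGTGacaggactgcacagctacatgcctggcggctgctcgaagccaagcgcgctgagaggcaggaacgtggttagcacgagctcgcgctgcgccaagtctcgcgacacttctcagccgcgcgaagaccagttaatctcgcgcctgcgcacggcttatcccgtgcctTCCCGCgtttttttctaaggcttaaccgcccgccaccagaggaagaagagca
Mael (chr1:166238695-166238994, minus strand): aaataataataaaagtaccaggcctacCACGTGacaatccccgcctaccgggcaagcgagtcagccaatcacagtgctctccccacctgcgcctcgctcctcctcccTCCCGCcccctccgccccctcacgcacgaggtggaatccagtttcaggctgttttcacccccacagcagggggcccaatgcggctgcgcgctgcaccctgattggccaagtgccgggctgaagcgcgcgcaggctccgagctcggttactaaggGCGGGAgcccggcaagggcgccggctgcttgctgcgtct
Smc1b (chr15:85131908-85132207, minus strand): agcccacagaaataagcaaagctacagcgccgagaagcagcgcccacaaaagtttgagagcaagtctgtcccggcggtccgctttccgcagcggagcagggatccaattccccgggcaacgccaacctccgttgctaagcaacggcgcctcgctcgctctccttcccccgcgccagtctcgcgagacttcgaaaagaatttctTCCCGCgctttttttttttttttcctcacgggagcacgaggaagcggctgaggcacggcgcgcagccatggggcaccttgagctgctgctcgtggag
Meioc (chr11:102665335-102665634, plus strand): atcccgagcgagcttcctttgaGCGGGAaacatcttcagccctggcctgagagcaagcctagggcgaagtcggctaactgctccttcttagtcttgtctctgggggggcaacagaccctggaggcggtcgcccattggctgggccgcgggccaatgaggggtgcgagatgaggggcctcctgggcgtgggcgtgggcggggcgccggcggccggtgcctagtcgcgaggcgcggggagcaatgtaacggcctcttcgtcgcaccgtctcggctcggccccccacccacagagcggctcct
Mov10l1 (chr15:88982744-88983043, plus strand): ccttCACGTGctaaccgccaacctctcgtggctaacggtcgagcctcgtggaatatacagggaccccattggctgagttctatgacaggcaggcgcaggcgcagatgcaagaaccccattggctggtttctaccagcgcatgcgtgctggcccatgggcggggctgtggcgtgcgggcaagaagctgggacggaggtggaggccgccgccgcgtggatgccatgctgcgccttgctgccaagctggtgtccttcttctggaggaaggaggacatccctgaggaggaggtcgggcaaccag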

How the data were processed

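Poly(A)-selected RNA of 4 libraries was measured (2 shScramble, 2 shYthdf2), which the study's methods call independent replicates. The authors deposited 1 table of raw read counts per gene, made with featureCounts 2.0.3 over RefSeq exons of mm10, with no normalization or pooling. fastp 0.19.4, HISAT2 2.2.1 and DESeq2 1.40.2 are named in the submitters' processing notes. Both reads of a pair were counted (61.45% to 63.94% of counts from 1 to 20 were even), without strand, and reads with several placements were left out. The deposited table also gives the exon length per gene, used for CPM per kb. Depth was 31113006 to 36422510 counts per library, and 3 counts came to 0.0824 to 0.0964 CPM. Since both reads of a pair were counted, 3 counts can stand for fewer than 3 fragments. The limit for a gene at 0, for counting error only, therefore lies above these values.

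Groups and replicate numbers came from the sample titles. Groups were compared with the two-sided quasi-likelihood F test of edgeR 4.0.16 in R 4.3.3, with TMM scaling, filterByExpr (minimum count 10, minimum total 15) and Benjamini-Hochberg adjustment over 18341 genes. The SE of a log2 fold change is its size over the root of F, and intervals are at 95%. Alternatives were RLE, upper-quartile and library-total scaling, no filter, a mean of at least 1 CPM, halved counts, a replicate block, each library left out, DESeq2 1.42.0, the study's criteria and limma-voom (limma 3.58.1). Members and lists were chosen with earlier results of these data known. All 10 members were named. In each related list the genes with an adjusted p under 0.05 were named, at most 5 per direction, or else the gene with the lowest, and neighbours, the relatives Ring1 and Tfdp2, and Ythdf2 were added. Named after their values were seen were the single cell type markers, Tdgf1 included, the other 5 germline genes called lower, and the promoters and lengths shown. Transcript windows and GGAC words were read from GENCODE M21 transcripts (GRCm38), promoters from RefSeq on GRCm38.p6.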

Additional observations from a re-analysis of the deposited data

How the results depend on the processing

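Ythdf2, Stag3, Meioc and Smc1b passed in all 14 other settings, the 4 that leave out a library included. Of the PRC1.6 subunits, 1 was called lower with DESeq2 (E2f6), and leaving out 1 library gave 0 to 1 called lower, the 1 being Mga without shYthdf2 replicate 2. Mga was 0.25 without shYthdf2 replicate 1, in a range of -0.33 to 0.25, and Tfdp2 turned from -0.033 to 0.0089 without shScramble replicate 1 and to 0.0040 without shYthdf2 replicate 1, in a range of -0.073 to 0.0089. Of the subunits, only Mga changed sign. Genes called over the related lists numbered 11, with 17 without a filter, 7 by the study's criteria and 13 to 19 with 1 library left out (18 without shYthdf2 replicate 1, 19 without shYthdf2 replicate 2). Germline genes called lower numbered 10, where 1.49% of all genes were called lower, and 6 by the study's criteria, which 2.88% of all genes passed in either direction. With 1 library left out, the median log2 fold change of the germline genes lay between -0.89 and -0.62. Shares of relatives and levels per kb moved with the gene length used, as given with them. The causes of these moves were not tested.

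The replicate numbers in the titles are not said to mark shared cultures. Across the genes tested, the difference between replicates 1 and 2 in shScramble correlated at 0.225 with that in shYthdf2. With the replicate block, 1 subunit was called higher (Tfdp1, adjusted p = 0.0251) and 3 lower (E2f6, 0.00513, Yaf2, 0.00778, and Rnf2, 0.0382), in a fit that called 19.2% of all genes. It called 32 genes over the related lists and 21 germline genes lower.

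With 2 libraries per group, the intervals of the subunits leave room for changes larger or smaller than those measured. Before adjustment, those of Tfdp1, Rnf2, E2f6 and Yaf2 left out 0 and those of the other subunits included it. Transcripts do not give protein or the makeup of the complex.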
